A study of Homo sapiens with 6 samples.

Results

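The 10 genes described here encode the 6 peroxiredoxins (PRDX1 to PRDX6), the cytosolic thioredoxin (TXN) and 3 enzymes that make or recycle glutathione (GCLC, GCLM and GSR). They were chosen by name, with earlier results of these data known. All 10 were found among the 60664 genes of the deposited count table and passed the filter on low counts. The table came from mRNA sequencing of HCT8, a human colorectal cancer cell line grown in DMEM with serum. In 3 libraries the cells had received a plasmid overexpressing GPT1, the cytosolic alanine aminotransferase with the gene symbol GPT, and in 3 libraries a control plasmid, the control cells being labelled WT in genotype. The stated purpose was to find pathways that GPT1 regulates. The labels give neither the vector, nor the time after transfection, nor whether the replicates came from separate cultures. The p-values below therefore measure the spread between these libraries, which may be technical.

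Peroxiredoxins reduce hydrogen peroxide and organic peroxides through a reactive cysteine. In most of them the oxidized cysteine pairs with another cysteine, and the resulting disulfide is reduced by thioredoxin, which thioredoxin reductase recharges with electrons from NADPH. Glutathione, the abundant thiol tripeptide of the cell, is made from glutamate, cysteine and glycine, and glutamate-cysteine ligase, composed of the catalytic subunit GCLC and the modifier subunit GCLM, carries out the rate-limiting step. GSR, glutathione reductase, returns oxidized glutathione to its reduced form. Several of these genes are known targets of NRF2, the transcription factor encoded by NFE2L2 that binds antioxidant response elements and is held in check by KEAP1.

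The start regions of GCLM, TXN, PRDX2 and PRDX4, which were higher in the GPT1 libraries as PRDX1 was, and of GCLC for comparison with its partner GCLM, are shown first, since both subunits of 1 enzyme are compared further on. The RefSeq promoter table for GRCh38.p14 gave windows used here for 7 of the 10 members. The windows are the 250 bases upstream of the RefSeq start, written 5′ to 3′ on the strand of the gene. Capitals mark matches on either strand to TGACNNNGC, the core of the antioxidant response element, or to GGGCGG, the GC box bound by Sp1. These motifs do not overlap in the sequences shown. They belong to GCLM (chr1:93909431-93909680, minus strand), GCLC (chr6:53545102-53545351, minus strand), TXN (chr9:110256508-110256757, minus strand), PRDX2 (chr19:12801801-12802050, minus strand) and PRDX4 (chrX:23667243-23667492, plus strand).
GCLM: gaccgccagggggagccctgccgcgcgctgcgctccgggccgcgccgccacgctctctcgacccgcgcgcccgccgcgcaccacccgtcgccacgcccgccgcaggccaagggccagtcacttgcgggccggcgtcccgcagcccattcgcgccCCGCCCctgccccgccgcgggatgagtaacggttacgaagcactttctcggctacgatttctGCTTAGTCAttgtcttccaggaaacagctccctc
GCLC: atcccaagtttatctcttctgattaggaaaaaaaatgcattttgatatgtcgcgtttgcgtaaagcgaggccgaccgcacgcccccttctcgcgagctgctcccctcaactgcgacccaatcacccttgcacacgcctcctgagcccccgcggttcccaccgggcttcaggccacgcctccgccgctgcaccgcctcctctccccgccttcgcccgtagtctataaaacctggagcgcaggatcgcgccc
TXN: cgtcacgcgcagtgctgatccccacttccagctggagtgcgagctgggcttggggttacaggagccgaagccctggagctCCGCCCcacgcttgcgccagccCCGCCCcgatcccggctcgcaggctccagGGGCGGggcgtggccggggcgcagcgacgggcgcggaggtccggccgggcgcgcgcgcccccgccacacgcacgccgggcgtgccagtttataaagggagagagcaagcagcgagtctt
PRDX2: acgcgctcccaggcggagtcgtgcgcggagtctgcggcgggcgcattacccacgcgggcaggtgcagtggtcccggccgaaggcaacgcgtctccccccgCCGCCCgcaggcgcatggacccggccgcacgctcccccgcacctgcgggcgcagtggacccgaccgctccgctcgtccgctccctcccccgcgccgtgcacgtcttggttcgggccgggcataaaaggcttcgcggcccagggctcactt
PRDX4: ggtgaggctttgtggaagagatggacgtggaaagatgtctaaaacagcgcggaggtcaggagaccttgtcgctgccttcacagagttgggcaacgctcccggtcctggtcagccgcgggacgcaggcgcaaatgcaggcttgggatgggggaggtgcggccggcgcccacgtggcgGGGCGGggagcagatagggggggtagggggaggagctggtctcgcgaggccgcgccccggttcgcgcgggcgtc

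The GCLM window held 1 match to TGACNNNGC, read as GCTTAGTCA on the gene's strand, which is the reverse complement of the motif, from 34 to 26 bases upstream of the start (GRCh38.p14 chromosome 1, 93909456 to 93909464). None of the other windows, those of GCLC, TXN, PRDX2, PRDX3, PRDX4 and PRDX5, held this motif, which occurred in 10.9% of all 35116 windows of the same length. The GC box occurred in 42.6% of all windows and in each of these members' genes except GCLC, with 3 matches each in TXN and PRDX3 and 1 each in GCLM, PRDX2 and PRDX4. PRDX5 has a pair of windows in the table, with 2 matches in one and 1 in the other. The GENCODE bounds of all 7 genes reach upstream of the RefSeq starts into these windows, those of GCLC and PRDX4 beyond them, and that of GCLM ends at the base where the match lies closest to the start. A match describes the letters of the window and does not show binding. A window without a match says nothing of bases outside it, which were not searched.

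GPT itself separated the groups as labelled, with 105529, 96886 and 106063 counts in the GPT1 libraries and 9, 14 and 3 counts in the control libraries. The log2 fold change of GPT in the quasi-likelihood fit of edgeR was 13.42 ± 0.19 (SE), with an adjusted p of 1.22e-11 (Benjamini-Hochberg, over all tested genes). Plasmid and endogenous transcripts of GPT cannot be told apart in the counts. Total counts ranged from 30370654 to 31513656 in the GPT1 libraries and from 21255655 to 32487217 in the control libraries, control replicate 3 being the shallowest. Over all 17638 tested genes, 1858 (10.5%) passed as higher and 2572 (14.6%) as lower in the GPT1 libraries at an adjusted p of 0.05. The sum of 4430 was 1586 without GPT1 replicate 1, 1443 without GPT1 replicate 3 and 2565 without control replicate 1. After correction for transcript length and GC content, these counts were 3499 (19.8%) and 2597 (14.7%). In 21.2% of the tested genes all GPT1 libraries lay above all control libraries, and in 22.2% all lay below. The cell type label was checked against marker genes. The epithelial keratin genes KRT8 and KRT18 were abundant, whereas the intestinal markers differed among themselves. CDX2, an intestinal transcription factor, was at 45.3 ± 3.56 CPM in the GPT1 and 41.7 ± 4.47 CPM in the control libraries (SD, n = 3 each; CPM are counts relative to a fixed library total, TMM-scaled for single genes). VIL1, CDH17 and LGALS4 were at 3.17, 0.945 and 0.814 CPM in the GPT1 libraries and at 12.3, 3.97 and 3.91 CPM in the control libraries, and KRT20, CDX1, CEACAM5 and CEACAM6 were each under 1 CPM in both groups. Of 11 tested epithelial and intestinal markers 10 were lower in the GPT1 libraries, in which the whole list summed to between 571 and 630.1 CPM, against 935 to 1060 CPM in the control libraries. Of 6 neural and kidney-line markers 3 were lower (250.2 to 259 CPM in GPT1 and 459 to 563 CPM in control libraries). The highest of that list, NEFM and NEFL, were at 104 and 83.05 CPM in GPT1 and 292.5 and 151.6 CPM in control libraries. INA, the next, went the other way, at 61.1 CPM in GPT1 and 51.9 CPM in control libraries, and did not pass (adjusted p = 0.0633, edgeR). PAX2 and TUBB3 did not pass either. Among the epithelial and intestinal markers of the control libraries, KRT8 and KRT18 lay at 529 and 261 CPM and the next, KRT19, at 51.15 CPM. Of 5 tested fibroblast markers 2 were higher (60.0 to 62.0 CPM in GPT1 and 49.9 to 54.1 CPM in control libraries). Endothelial, leukocyte and erythroid markers summed to at most 2.07 CPM in any library. CD3E and HBB were at 0 in all libraries. The part of these marker shifts in the results below was not tested, and in bulk RNA fewer cells of a type and less RNA per cell cannot be told apart.

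Of the 10 members, 5 rose in the GPT1 libraries and 0 fell, beside a background of 10.5% of tested genes higher and 14.6% lower. PRDX1, PRDX2, PRDX4, TXN and GCLM were the members that rose, by 1.28-fold to 1.75-fold. PRDX3, PRDX5, PRDX6, GCLC and GSR did not pass, with log2 fold changes between -0.19 and 0.14. The median log2 fold change of the members was 0.25, against -0.02 over all tested genes. In 6 members all GPT1 libraries lay above all control libraries, in 1 (GCLC) all lay below, and in 3 the groups overlapped, beside background shares of 21.2% and 22.2%. PRDX1 and TXN passed with any single library left out, whereas the number of members that passed was 2 without GPT1 replicate 1, 2 without GPT1 replicate 3 and 3 without control replicate 1. Without control replicate 3, the shallowest library, the same 5 members passed.

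**Figure D1:**
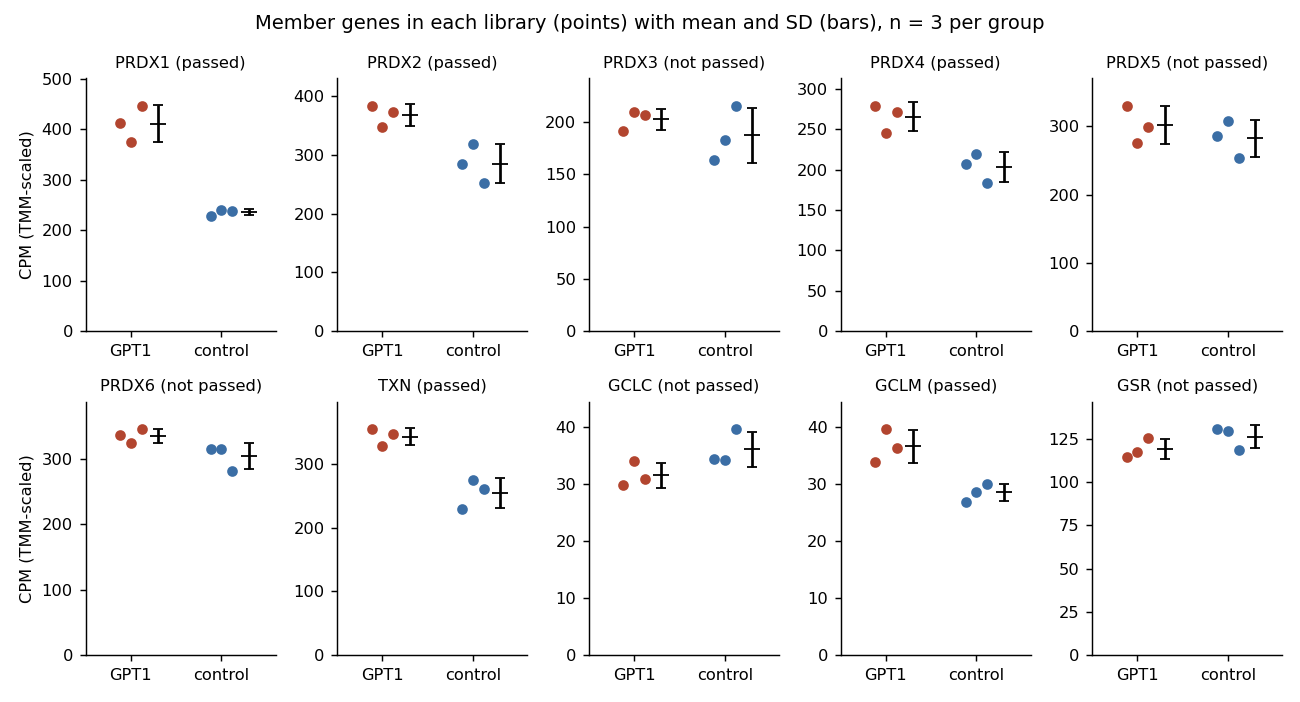
TMM-scaled CPM (vertical axes, each from 0) of the 10 members in the 3 GPT1 libraries (left in each panel) and the 3 control libraries (right), with the mean and SD as bars. The GPT1 points of PRDX1 lie between 374 and 447 CPM, all above its control points at 229 to 241 CPM, whereas the points of PRDX3, PRDX5 and GSR overlap between groups.

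Among the peroxiredoxins, PRDX1 had the largest fold change. PRDX1 (ENSG00000117450, GRCh38 chromosome 1, 45511036 to 45523047, minus strand) encodes a cytosolic and nuclear peroxiredoxin that is recycled by thioredoxin. It had 413, 374 and 447 CPM in the GPT1 libraries, against 229, 241 and 238 CPM in the control libraries. Every GPT1 library was far above every control library, and the control libraries lay close together. The fold was 1.75, with a 95% interval of 1.53 to 1.99 (log2 fold change 0.80 ± 0.09 SE, adjusted p = 0.000245, edgeR). This log2 fold change lay at or above those of 96.3% of the tested genes. PRDX1 shares 379 exonic bases with MMACHC on the opposite strand. MMACHC held 3270 counts in the GPT1 and 2466 counts in the control libraries in all, beside 37927 and 20205 counts of PRDX1, and whether the authors counted by strand is not known here, so reads of the shared bases cannot be assigned to either gene.

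PRDX2 and PRDX4 rose as well, by 1.29-fold and 1.30-fold. PRDX2 (ENSG00000167815, chromosome 19, 12796820 to 12801859, minus strand), the close cytosolic relative of PRDX1 that is abundant in red blood cells, had 384, 347 and 373 CPM in the GPT1 libraries and 285, 319 and 252 CPM in the control libraries. The groups did not overlap, but the highest control library came near the lowest GPT1 library. Its fold was 1.29 (95% interval 1.115 to 1.493, adjusted p = 0.0209, edgeR), and the call ended without GPT1 replicate 1, GPT1 replicate 3 or control replicate 1 (adjusted p = 0.0860, 0.0841 and 0.0607, edgeR). PRDX4 (ENSG00000123131, chromosome X, 23664262 to 23686399, plus strand) works in the endoplasmic reticulum, where it couples peroxide to the oxidation of protein disulfide isomerases. It had 279, 245 and 272 CPM in the GPT1 libraries, against 207, 219.8 and 183 CPM in the control libraries, again without overlap. The fold of PRDX4 was 1.30 (95% interval 1.134 to 1.5, adjusted p = 0.0156, edgeR). Its call ended without GPT1 replicate 1 or GPT1 replicate 3 (adjusted p = 0.0718 and 0.0737, edgeR), and its log2 fold change of 0.38 was 0.22 after the length and GC correction (adjusted p = 0.0185, edgeR).

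The peroxiredoxins of mitochondria and the remaining cytosolic form did not pass. PRDX3 (ENSG00000165672, chromosome 10, 119167703 to 119178833, minus strand), which is targeted to the mitochondrial matrix, had 191.5, 209 and 207 CPM in the GPT1 libraries and 164, 183 and 216 CPM in the control libraries. Control replicate 3 held the highest value of all 6 libraries, and the 95% interval of the fold ran from 0.923 to 1.26 (adjusted p = 0.443, edgeR). PRDX5 (ENSG00000126432, chromosome 11, 64318088 to 64321811, plus strand) is found in mitochondria, peroxisomes and cytosol and forms its disulfide within a single chain. It had 330.2, 275 and 299 CPM in the GPT1 libraries and 286, 308 and 253 CPM in the control libraries, with an interval of the fold from 0.919 to 1.24 (adjusted p = 0.499, edgeR). Its log2 fold change changed sign with the length and GC correction, being 0.09 without it and -0.05 with it, and it did not pass in either case. PRDX6 (ENSG00000117592, chromosome 1, 173477266 to 173488807, plus strand) carries no resolving cysteine, relies on glutathione instead of thioredoxin, and also has phospholipase activity. It had 337, 324 and 346 CPM in the GPT1 libraries, against 316, 316 and 282 CPM in the control libraries. These groups did not overlap, but the difference was small, with an interval of the fold from 0.976 to 1.25 (adjusted p = 0.211, edgeR). The intervals of PRDX3, PRDX5 and PRDX6 end just below the folds of PRDX2 and PRDX4, so a smaller rise in them is not contradicted and equal levels in both groups are not shown.

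TXN also rose. TXN (ENSG00000136810, chromosome 9, 110243811 to 110256640, minus strand) encodes the small cytosolic disulfide reductase that serves PRDX1 and PRDX2 as electron donor. It had 355, 328 and 348 CPM in the GPT1 libraries, against 229, 276 and 261 CPM in the control libraries. The GPT1 libraries all lay above the control libraries, of which replicate 1 was lowest. The fold was 1.35 (95% interval 1.18 to 1.54, log2 fold change 0.43 ± 0.09 SE, adjusted p = 0.00822, edgeR), and its adjusted p was at most 0.0466 with a library left out. Processed pseudogenes could take reads from TXN, but the 7 in the table held 61 counts in all, 0.11% of the 53517 counts of TXN. Over the members, 17 such pseudogenes were in the table, and for no member did they hold a larger share than this. Reads that match a gene and its copies equally may have been discarded before counting, which these numbers do not show.

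Of the subunits of glutamate-cysteine ligase, GCLM rose and GCLC did not pass. GCLM (ENSG00000023909, chromosome 1, 93885205 to 93909456, minus strand), which lowers the enzyme's sensitivity to feedback by glutathione, had 33.8, 39.5 and 36.3 CPM in the GPT1 libraries, against 26.9, 28.6 and 29.9 CPM in the control libraries. The groups did not overlap, and the fold was 1.28 (95% interval 1.09 to 1.51, adjusted p = 0.0315, edgeR). GCLC (ENSG00000001084, chromosome 6, 53497341 to 53616970, minus strand), which holds the active site, had 29.7, 33.9 and 30.8 CPM in the GPT1 libraries, against 34.3, 34.2 and 39.5 CPM in the control libraries. All GPT1 values of GCLC lay below the control values, GPT1 replicate 2 only just, and the difference did not pass (fold 0.875, 95% interval 0.742 to 1.03, adjusted p = 0.205, edgeR). Within each library the ratio of GCLM to GCLC counts was 1.14, 1.17 and 1.18 in the GPT1 libraries, against 0.783, 0.837 and 0.757 in the control libraries. The ratio was thus 1.47-fold higher in the GPT1 libraries without overlap, at p = 0.1 in a two-sided exact permutation test, the smallest p that 3 against 3 libraries allow. A ratio within a library does not depend on the scaling between libraries, though a library's trend with length and GC content can move it. It describes an unequal difference in these libraries and not which subunit changed.

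The calls for this enzyme depended on the libraries and on transcript length. GCLM did not pass when any library other than control replicate 3 was left out, with adjusted p from 0.0562 to 0.110 (edgeR), while its log2 fold change stayed between 0.32 and 0.42. GCLM has the longest transcript of the members, at 4857 bases, and with 37.3% the lowest GC content. After the length and GC correction GCLM stood at a log2 fold change of 0.73 ± 0.10 (SE; adjusted p = 0.000175 in edgeR), against 0.36 ± 0.11 without it. GCLC, with 3813 bases and 44.3% GC, was at -0.08 after the correction, against -0.19 without it. The noncoding genes that overlap GCLC held at most 3 counts in either group, beside 855 to 1123 counts of GCLC per library.

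GSR (ENSG00000104687, chromosome 8, 30678061 to 30727999, minus strand) had 114, 118 and 126 CPM in the GPT1 libraries and 131, 129.8 and 119 CPM in the control libraries. The groups overlapped, and the interval of the fold ran from 0.832 to 1.07 (adjusted p = 0.473, edgeR). A rise of the size seen in TXN or GCLM lay outside this interval. The forest plot sets the members side by side.

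**Figure D2:**
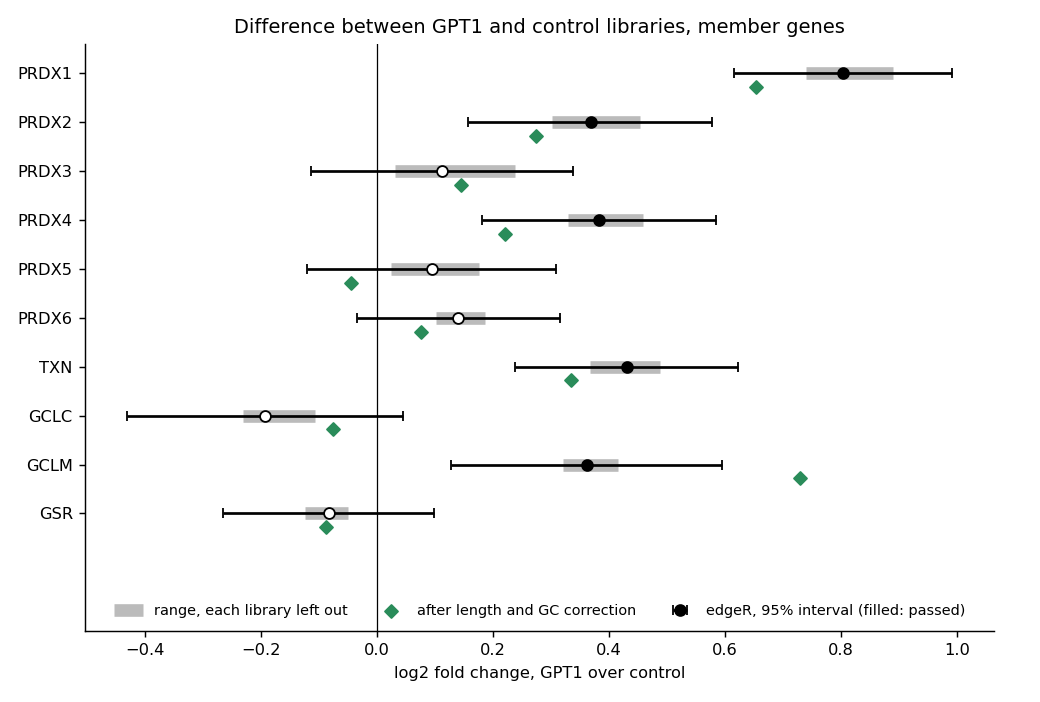
Log2 fold change of each member, GPT1 over control, with the 95% interval of the edgeR fit (circles, filled where the adjusted p passed 0.05), the range over the fits that leave out 1 library (grey bars) and the value after the length and GC correction (diamonds). PRDX1 stands furthest to the right at 0.80, and the diamond of GCLM lies furthest from its circle, at 0.73.

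Transcript length bears on how these differences are read, because log2 fold changes over 17436 tested genes fell with the length of the longest transcript (Spearman -0.33) and rose with GC content (0.31), a description over genes, which are not independent replicates. Most members are short, PRDX5, TXN, PRDX4 and PRDX1 having 893, 869, 1005 and 1234 bases. The correction fitted each library's trend with length and GC content and took it out. With it, the same number of members, 5, were higher and 0 lower, beside a background of 19.8% higher. The corrected log2 fold changes were 0.65 for PRDX1, 0.33 for TXN, 0.27 for PRDX2, 0.22 for PRDX4 and 0.73 for GCLM, each with an adjusted p of at most 0.0185 (edgeR).

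**Figure D3:**
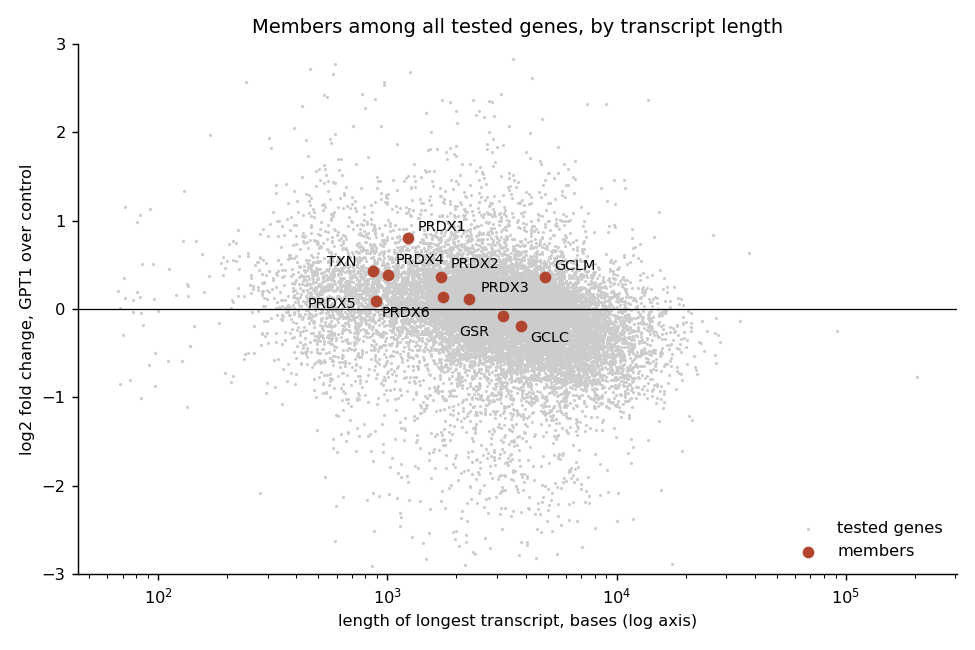
Log2 fold change, GPT1 over control, against the length of the longest transcript on a log axis, for tested genes (grey) and the members (red, named). 21 of 17436 genes lie beyond the limits of 3 on the vertical axis. TXN, PRDX4 and PRDX1 stand among short genes and GCLM among long ones.

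Scaled to transcript length, the members spanned a wide range of levels. In the GPT1 libraries TXN stood highest at 396 ± 16.2 CPM per kb (SD, n = 3), followed by PRDX2 (373 ± 19.3), PRDX5 (337 ± 31.1), PRDX1 (333.5 ± 29.7), PRDX4 (264 ± 18), PRDX6 (192 ± 6.27), PRDX3 (127 ± 6.11), GSR (37.4 ± 1.84), GCLC (8.25 ± 0.57) and GCLM (7.52 ± 0.60). In the control libraries PRDX5 stood highest at 316 ± 30.7 CPM per kb, followed by TXN (294 ± 27.3), PRDX2 (289 ± 33.7), PRDX4 (202 ± 18.3), PRDX1 (191 ± 4.88), PRDX6 (174 ± 11.4), PRDX3 (118 ± 16.5), GSR (39.6 ± 2.08), GCLC (9.45 ± 0.80) and GCLM (5.86 ± 0.32). Neighbours in this order whose libraries overlapped were TXN and PRDX2, PRDX2 and PRDX5, PRDX5 and PRDX1, and GCLC and GCLM in the GPT1 libraries, and PRDX5 and TXN, TXN and PRDX2, and PRDX4 and PRDX1 in the control libraries. The other neighbours were separate. PRDX1 thus lay beside PRDX4 in the control libraries and above it in the GPT1 libraries. Of the summed length-scaled level of the 6 peroxiredoxins, PRDX1 made up 20.5% ± 1.02 in the GPT1 libraries and 14.8% ± 0.93 in the control libraries (SD, n = 3 each), and PRDX5 made up 20.7% ± 1.07 in the GPT1 libraries and 24.5% ± 0.91 in the control libraries. These levels use the length of 1 transcript per gene. With the length of all annotated exons, PRDX5 stood highest and PRDX1 stood above PRDX4 in both groups, GCLM stood above GCLC in both (6.74 and 3.64 CPM per kb in GPT1, 5.25 and 4.17 CPM per kb in control libraries), and the PRDX1 share was 24% in the GPT1 libraries and 17.3% in the control libraries.

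**Figure D4:**
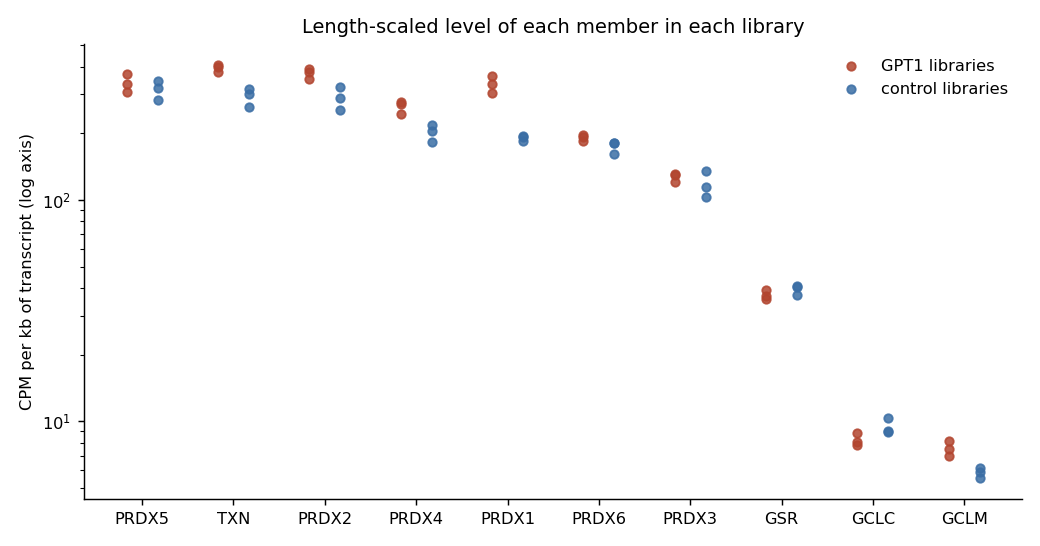
Length-scaled level of each member, in CPM per kb of transcript on a log axis, in the GPT1 libraries (left in each pair) and the control libraries (right). Members run from the highest control mean (PRDX5, 316) to the lowest (GCLM, 5.86), so the peroxiredoxins and TXN lie far above the ligase subunits.

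The genes that work with these enzymes were followed in lists of 75 genes, of which 73 were tested. Of these, 14 (19.2%) were higher and 9 (12.3%) lower, beside backgrounds of 10.5% and 14.6%, and 50 did not pass. Their median log2 fold change was 0.03, against -0.02 over all tested genes. With the length and GC correction, 25 were higher and 13 lower, beside corrected backgrounds of 19.8% and 14.7%. Without GPT1 replicate 1, GPT1 replicate 3 or control replicate 1, 10, 8 and 12 of them passed in all.

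Of 14 tested thioredoxin reductase and partner genes, 5 (35.7%) rose and 2 (14.3%) fell, beside backgrounds of 10.5% and 14.6%. TXNIP, which binds reduced thioredoxin and blocks it, had 35.2, 33.8 and 36.8 CPM in the GPT1 libraries, against 108, 97.8 and 114 CPM in the control libraries. Its groups lay far apart, with a log2 fold change of -1.59 ± 0.09 (SE, adjusted p = 7.39e-06, edgeR). TXNDC17, a thioredoxin-like protein of the cytosol, rose, with 48.0, 40.9 and 47.5 CPM in the GPT1 libraries and 25.4, 28.99 and 26.1 CPM in the control libraries (log2 fold change 0.76 ± 0.11 SE, adjusted p = 0.0014, edgeR). SESN2, a stress-induced sestrin that restrains mTORC1 signalling, rose to 492 ± 26.2 CPM in the GPT1 libraries, against 333 ± 63.2 CPM in the control libraries (SD, n = 3 each, adjusted p = 0.0113, edgeR). The others that rose were TXNRD2, the mitochondrial thioredoxin reductase, SESN1 and TXNDC12 (log2 fold changes 0.47, 0.30 and 0.51, adjusted p = 0.0133, 0.049 and 0.0413, edgeR). TXNDC12 was low, at 5.78 CPM in the GPT1 and 4.06 CPM in the control libraries. SESN3 passed as lower at -0.74 (adjusted p = 0.029, edgeR) and did not pass after the length and GC correction (log2 fold change -0.18, adjusted p = 0.131, edgeR). TXNRD1, the cytosolic reductase of TXN, was at 319.6 ± 20.7 CPM in the GPT1 and 279 ± 16.8 CPM in the control libraries and did not pass (adjusted p = 0.107, edgeR), and it passed after the length and GC correction (log2 fold change 0.33, adjusted p = 0.000809, edgeR). SRXN1, which repairs overoxidized peroxiredoxins, was at 1.98 ± 0.50 CPM in the GPT1 and 2.16 ± 0.26 CPM in the control libraries (SD, n = 3 each, adjusted p = 0.705, edgeR).

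Of 13 genes of glutathione supply and breakdown, 1 (7.69%) rose and 2 (15.4%) fell, near the backgrounds of 10.5% and 14.6%. SLC3A2, the heavy chain of several amino acid transporters including the cystine transporter, rose to 648.5 ± 43.9 CPM in the GPT1 libraries, against 486.5 ± 52.8 CPM in the control libraries (SD, n = 3 each, adjusted p = 0.0143, edgeR), though not without GPT1 replicate 1 or GPT1 replicate 3 (adjusted p = 0.0626 and 0.0684, edgeR). SLC7A11, the cystine-carrying light chain, had 79.4, 108 and 88.0 CPM in the GPT1 libraries, against 118, 109 and 161 CPM in the control libraries. GPT1 replicate 2 came close to control replicate 2, and control replicate 3 stood above all others. The log2 fold change of SLC7A11 was -0.49 ± 0.15 (SE, adjusted p = 0.0373, edgeR), and it was 0.11 after the length and GC correction (adjusted p = 0.192, edgeR). The call also ended without either GPT1 replicate 1, GPT1 replicate 3, control replicate 1 or control replicate 3 (adjusted p = 0.141, 0.123, 0.0587 and 0.0582, edgeR). OPLAH, which returns oxoproline to glutamate, was low throughout, with 16, 19 and 11 counts in the GPT1 libraries and 37, 36 and 17 counts in the control libraries. It passed as lower (log2 fold change -1.05, adjusted p = 0.0329, edgeR), but not without GPT1 replicate 1, GPT1 replicate 3, control replicate 1 or control replicate 2 (adjusted p from 0.0779 to 0.125, edgeR) and not in DESeq2 (adjusted p = 0.0642). The other 10 genes of the list did not pass, among them GSS, the ligase that adds glycine (164 ± 5.69 CPM in GPT1 and 162 ± 17.8 CPM in control libraries, SD, n = 3 each, adjusted p = 0.936, edgeR).

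Of 10 glutathione peroxidase and glutaredoxin genes, 2 (20%) rose and 2 (20%) fell, beside backgrounds of 10.5% and 14.6%. GPX2, the peroxidase of the gastrointestinal epithelium, had 4.70, 3.67 and 4.68 CPM in the GPT1 libraries, against 22.7, 22.1 and 19.7 CPM in the control libraries (log2 fold change -2.30 ± 0.14 SE, adjusted p = 8.7e-06, edgeR). The fall of this epithelial gene stood beside falls in 10 of 11 tested epithelial and intestinal markers. Their part in the GPX2 fall was not tested. The log2 fold changes of these 10 ran from -2.58 (CLDN3) to -0.59 (KRT8), while CDX2 did not pass (0.12). The list summed to 571 to 630.1 CPM in the GPT1 and 935 to 1060 CPM in the control libraries. KRT8 and KRT18, at 352 and 171 CPM in the GPT1 libraries, made up most of that sum. GPX7, a peroxidase of the endoplasmic reticulum, had 6, 3 and 5 counts in the GPT1 libraries and 22, 11 and 18 counts in the control libraries (adjusted p = 0.0167, edgeR), and its call ended without GPT1 replicate 3 or control replicate 1 (adjusted p = 0.0594 and 0.0576, edgeR). GLRX3, a glutaredoxin that handles iron-sulfur clusters, rose to 189 ± 6.08 CPM in the GPT1 libraries, against 144.5 ± 7.56 CPM in the control libraries (SD, n = 3 each, adjusted p = 0.00777, edgeR). GPX1, the abundant cytosolic peroxidase and the remaining riser of the list, was at 474 ± 49.1 CPM in the GPT1 and 341 ± 66.5 CPM in the control libraries (SD, n = 3 each, adjusted p = 0.0264, edgeR). GPX1, TXNRD1, TXNRD2, SRXN1, SESN1, SESN3, TXNDC12, GSS, NNT, NADK2, IDH2, NFE2L2, BACH2 and MAFF lie outside the rule for named genes and are described after their values were seen.

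Among the superoxide dismutases, catalase and the genes linked to NADPH supply, few passed without the length and GC correction. Of 4 dismutase and catalase genes 3 were tested, SOD3 not, and 1 (33.3%) was higher, beside a background of 10.5%. SOD1, the cytosolic superoxide dismutase that produces hydrogen peroxide, rose to 327 ± 15.7 CPM in the GPT1 libraries, against 261 ± 10.3 CPM in the control libraries (SD, n = 3 each, adjusted p = 0.0152, edgeR), a call that ended without GPT1 replicate 1, GPT1 replicate 3 or control replicate 1 (adjusted p = 0.0680, 0.0836 and 0.0543, edgeR). CAT, the catalase of peroxisomes, was at 27.5 ± 1.88 CPM in the GPT1 and 30.04 ± 1.40 CPM in the control libraries (SD, n = 3 each, adjusted p = 0.379, edgeR), and SOD2, the mitochondrial dismutase, at 135 ± 8.31 CPM in the GPT1 and 132 ± 3.42 CPM in the control libraries (adjusted p = 0.772, edgeR). SOD2 passed as higher after the length and GC correction (log2 fold change 0.48, adjusted p = 0.00127, edgeR). The correction used its longest annotated transcript, of 14266 bases, and the part of that length in the call was not tested. Of 11 genes listed as linked to NADPH supply, several of them from the pentose phosphate pathway, 1 (9.09%) was lower, beside a background of 14.6%. It was TKT of that pathway, at 579 ± 21.6 CPM in the GPT1 and 695 ± 52.8 CPM in the control libraries (SD, n = 3 each, adjusted p = 0.0408, edgeR). Its call ended with any single library left out other than control replicate 3, under the RLE scaling (adjusted p = 0.0507, edgeR) and under DESeq2 (adjusted p = 0.0658). PGD, a dehydrogenase of the same pathway, was at 229 ± 8.94 CPM in the GPT1 and 197 ± 21.4 CPM in the control libraries and did not pass (adjusted p = 0.103, edgeR). With the length and GC correction, genes of the NADPH list passed in both directions. The higher were NNT and NADK2 (log2 fold changes 0.42 and 0.28, adjusted p = 0.00196 and 0.0271, edgeR). The lower included IDH2 and TKT (log2 fold changes -0.26 and -0.21, adjusted p = 0.00337 and 0.016, edgeR).

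Of 10 regulators of the antioxidant response, 3 were higher and 2 lower, beside backgrounds of 10.5% and 14.6%, and 5 did not pass. KEAP1, the adaptor that delivers NRF2 to degradation, had 162, 137 and 156 CPM in the GPT1 libraries, against 108, 112 and 98.8 CPM in the control libraries (log2 fold change 0.51 ± 0.09 SE, adjusted p = 0.00474, edgeR). MAFG, a small MAF protein that pairs with NRF2 or BACH1 on DNA, rose to 219 ± 14.4 CPM in the GPT1 libraries, against 157 ± 17 CPM in the control libraries (SD, n = 3 each, adjusted p = 0.00766, edgeR). SQSTM1, the autophagy receptor p62 that binds KEAP1, rose to 579 ± 35.6 CPM in the GPT1 libraries, against 419 ± 64.7 CPM in the control libraries (SD, n = 3 each, adjusted p = 0.0149, edgeR), and did not pass without GPT1 replicate 1 or GPT1 replicate 3 (adjusted p = 0.0652 and 0.0580, edgeR). The genes that fell were BACH2, a repressor of the BACH family, and MAFF, another small MAF protein, with log2 fold changes of -0.51 and -0.55 (adjusted p = 0.0209 and 0.0225, edgeR). NFE2L2 had 30.8, 42.7 and 37.7 CPM in the GPT1 libraries and 42.2, 42.8 and 63.4 CPM in the control libraries, and did not pass (adjusted p = 0.0943, edgeR). NFE2L2 passed as lower after the length and GC correction (log2 fold change -0.39, adjusted p = 0.0363, edgeR). Of 12 tested glutathione transferase genes 2 (16.7%) rose and 0 fell, beside the same backgrounds. These were GSTP1, at 694 ± 60.7 CPM in the GPT1 and 497 ± 88.4 CPM in the control libraries (SD, n = 3 each, adjusted p = 0.0196, edgeR), and GSTO1, at 89.6 ± 7.90 CPM in the GPT1 and 62.1 ± 5.05 CPM in the control libraries (adjusted p = 0.00609, edgeR). GSTP1 did not pass without GPT1 replicate 1, GPT1 replicate 3 or control replicate 1 (adjusted p = 0.0815, 0.0688 and 0.0601, edgeR). MGST2, a microsomal transferase, did not pass (adjusted p = 0.0703, edgeR).

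**Figure D5:**
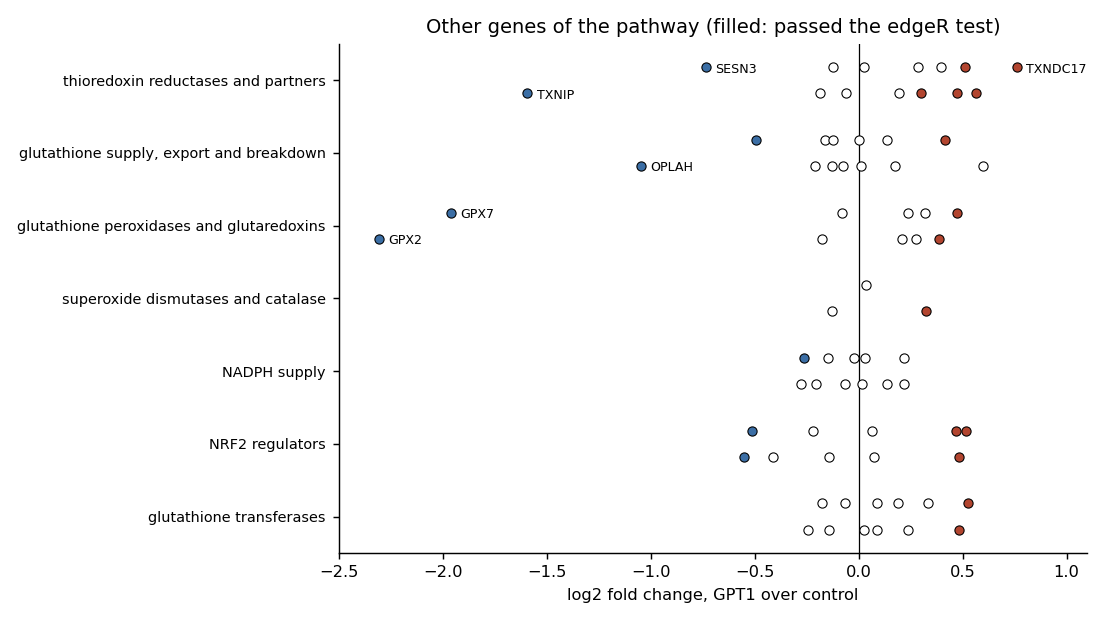
Log2 fold change, GPT1 over control, of the 73 tested genes in the 7 pathway lists, 1 row per list, with filled circles for genes that passed an adjusted p of 0.05 (red higher, blue lower in the GPT1 libraries) and names for those that passed with a change beyond 0.7 in either direction. The largest changes are falls, of GPX2 at -2.30, GPX7 at -1.96 and TXNIP at -1.59.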

How the data were processed

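The authors deposited 1 table of unnormalized read counts, with Ensembl genes in rows and 1 column per library. Reads were aligned with HISAT2 2.0 to GRCh38, per the submitters' processing notes. How reads were assigned to genes (tool, annotation, strand) is not given in the sources. Symbols, coordinates and transcript lengths came from GENCODE 29 on GRCh38 (58396 identifiers), with 2256 further identifiers named from a current table and 12 left without a name. Start-region sequences came from RefSeq (GRCh38.p14).

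Differences were fitted to the counts with edgeR 4.0.16 under R 4.3.3 (filterByExpr, TMM, glmQLFit and glmQLFTest, two-sided, Benjamini-Hochberg over all 17638 tested genes, threshold 0.05), tested beforehand on simulated data. All 6 libraries entered the fit without covariates. CPM of single genes uses TMM-scaled totals, marker sums use plain totals. Standard errors come from the fold change and its F statistic. Replicates differed by more than sampling noise (chi-square per degree of freedom 9.98 to 30.8 over genes with at least 20 counts), so all were kept as separate samples. Alternatives were other scaling, DESeq2 1.42.0, limma 3.58.1 (voom), no filter, GPT left out, an adjusted p of 0.01, a replicate block, each library left out, and a length and GC offset (mgcv 1.9.3, longest transcript, values for 98.9% of tested genes). The exon-union lengths were added after seeing the data.

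The members and lists were chosen with earlier results of these data known. The rule for named genes took all members, GPT and, per pathway list, the 3 tested genes with the smallest adjusted p. One gene that the rule takes is not reported here.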

Additional observations from a re-analysis of the deposited data

How the results depend on the processing

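The count of 5 higher members was 5 under the RLE and unscaled normalizations, without GPT, without a filter, in DESeq2, in limma voom and with the length and GC offset, 4 with a replicate block or with block and offset together, and 2 at an adjusted p of 0.01. With a library left out it ranged from 2 to 5. The pathway count of 23 was 38 with the offset and 7 at an adjusted p of 0.01, and ranged from 8 to 26 with a library left out. The count over all genes, 4430, was 1172 at an adjusted p of 0.01, 3886 with the replicate block, and 1443 to 4907 with a library left out. The causes of these shifts were not tested. The log2 difference of the GCLM to GCLC ratio, 0.55, ranged from 0.52 to 0.59 with a library left out. It was not recomputed with the offset, under which GCLM stood at 0.73 and GCLC at -0.08.

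The labels do not say whether the replicate numbers pair the libraries. Same-numbered GPT1 and control libraries correlated at 0.141, -0.282 and -0.084 in their deviations, and differently numbered ones at -0.318 to 0.387. With 3 libraries per group these values cannot decide whether the numbers mark pairs. Under the block GCLM (adjusted p = 0.0673) and TKT (0.117) no longer passed in edgeR. OPLAH (0.0642) and TKT (0.0658) did not pass in DESeq2, nor TKT with the RLE scaling (0.0507). The offset turned PRDX5 to -0.046 and SLC7A11 to 0.106, and with the block to -0.046 and 0.108. PRDX4 missed the threshold with block and offset together (adjusted p = 0.0558, edgeR). Of the alternative log2 fold changes of single members, 136 kept direction and side of the threshold, 12 kept the direction and no longer passed, and 2, both of PRDX5, changed sign without passing.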
